A study of Bos taurus with 12 samples.

Results

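The caseins and the main whey proteins of cow milk were examined through 7 genes: the caseins CSN1S1, CSN1S2, CSN2 and CSN3, and the whey protein genes LALBA, PAEP and GLYCAM1. Array probes were assigned to them by the RefSeq transcript that each probe was designed on. Probes were found for 6 of the 7 genes, among the 12787 genes with a named probe. They numbered 20: 6 for CSN1S1, 5 for CSN1S2, 3 for PAEP, and 2 each for CSN3, LALBA and GLYCAM1. CSN2, which encodes beta-casein, had no probe under the transcripts that the reference table gives for it and is not analysed here.

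Caseins are the phosphoproteins that carry calcium phosphate into milk. The alpha-s1, alpha-s2 and beta caseins bind calcium and would precipitate with it, and kappa-casein at the surface of the casein micelle keeps the particle in suspension. The whey proteins stay soluble, and their genes, like those of the caseins, are switched on in the secretory epithelial cells of the gland at lactation, under prolactin acting through STAT5 together with glucocorticoids and insulin. Transcripts of this family are among the most abundant in the lactating gland.

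Mammary gland biopsies were taken from multiparous Holstein cows in midlactation, from the rear of the udder, before (day 0) and on day 6 of a feed restriction. In the control period (CONT) the cows ate a lactation diet ad libitum, and in the restriction period (REST) their allowance covered 50% of the net energy they needed for lactation. The 12 biopsies, 6 of CONT and 6 of REST, came from 6 named cows sampled in both periods, and each was hybridised to 1 single-colour array. No other treatment is given for either group, and no cows fed ad libitum throughout are analysed here. Feed restriction therefore cannot be told apart from the days that passed, nor from the side of the udder, since the methods alternated the side of the biopsies. The series description counts 5 cows and the methods exclude 1 Holstein cow for mastitis without saying which, and the main comparison was therefore repeated without each cow. In tissue biopsies, fewer secretory cells and less RNA per cell cannot be told apart.

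The arrays came 4 to a slide, and each slide carried the CONT and REST samples of a pair of cows (cows 1 and 2 on the first, 3 and 4 on the second, 5 and 6 on the third, numbered 1, 2 and 3 here). Slide 3 was dimmer: the 75th percentile of its signals was 73.2 to 117 intensity units, against 252 to 390.0 on the other slides. Within every cow the REST array was the brighter one, with a 75th percentile higher by 0.30 ± 0.10 log2 units (mean ± SD, n = 6 cows). Signals are therefore given as log2 values relative to the 75th percentile of the array, unless another scaling is named. A change is REST minus CONT on that scale, from limma with the cow as a block, and a probe was called at an adjusted p below 0.1.

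The milk protein probes were at the top of the brightness range. Their mean signals ranked from 4 to 84 among 43653 probes, all 20 were well above background on all 12 arrays, and 0 of their spots were saturated. The scanner software took every one of these spots from its low-gain scan and rated the error of each at 10% of the signal. Background-subtracted and before any scaling between arrays, their signals ran from 90483 to 309971 intensity units on slides 1 and 2 and from 24962 to 122058 on slide 3.

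All 20 probes had a lower mean in REST than in CONT relative to the 75th percentile of the array, whereas with no scaling between arrays 0 of the 20 were lower. The scaled changes were small and alike, from -0.28 to -0.13 with a median of -0.22, against a median of 0.0018 over all 19403 tested probes. As percentages, the falls in mean signal correspond to changes of -17.8% to -8.54%. By limma with the cow as a block, 8 of the 20 probes (40%) were called lower and 0 higher, while of all tested probes 8.78% were called lower, 7.22% higher and 16% in either direction. On 17 probes the signal was lower in 6 of 6 cows, and on 3 in 5 of 6, with cow 5 the exception. The 8 called probes belonged to CSN1S2 (4 probes) and to CSN1S1, CSN3, LALBA and GLYCAM1 (1 probe each). Without the block, 0 of the 20 passed in limma (adjusted p 0.147 to 0.606, 11 at an unadjusted p under 0.05), beside 2.73% of all tested probes called lower, 1.58% higher and 4.31% in either direction. The probes of 1 gene read the same transcript, and probes of different genes moved together almost as closely over the 12 arrays (median correlation 0.815 over 159 pairs, 0.835 over the 31 pairs within a gene), so the 20 probes are not 20 separate observations.

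**Figure D1:**
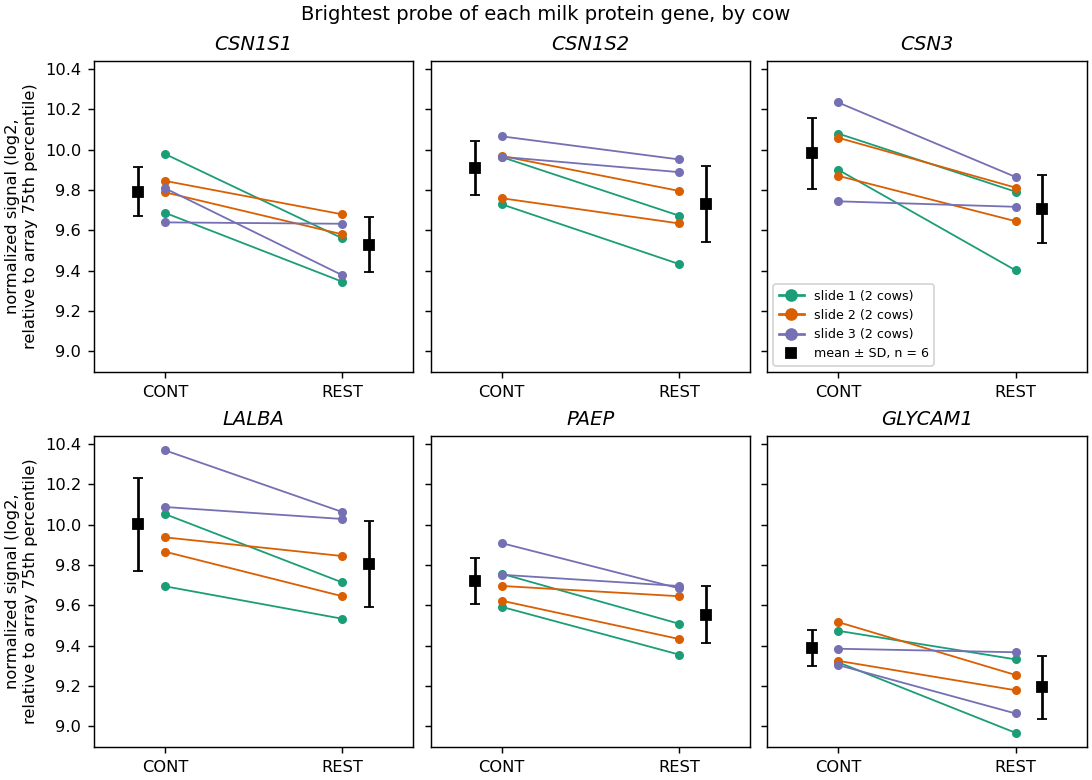
Normalized signal (log2, relative to the 75th percentile of the array) of the brightest probe of each of the 6 genes in CONT and REST; each line is a cow, coloured by slide, and squares with bars are the mean ± SD of 6 cows. Every line falls from CONT to REST, by 0.01 to 0.50 log2 units, on this scaling; with no scaling between arrays the mean change of each gene is above 0.

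Among the calcium-sensitive caseins, CSN1S1 encodes alpha-s1-casein. Its brightest probe lay at 9.64, 9.80 and 9.98 in CONT (lowest, median and highest of 6 cows) and at 9.34, 9.57 and 9.68 in REST. Every REST value except that of cow 4 was below the lowest CONT value, that of cow 5. The mean fell from 9.79 ± 0.12 to 9.53 ± 0.14 (SD, n = 6), a change of -0.26 (SE 0.09), lower in 6 of 6 cows, with an adjusted p of 0.0912 in limma. The other 5 probes of CSN1S1 had changes of -0.26 to -0.13 and were not called. Cow 5 had a higher REST than CONT signal on 2 of them, by 0.03 and 0.04.

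CSN1S2 encodes alpha-s2-casein, the most phosphorylated of the bovine caseins. Its brightest probe lay at 9.73, 9.96 and 10.07 in CONT and at 9.43, 9.73 and 9.95 in REST. The groups overlapped widely, although all 6 cows were lower in REST. The change of -0.18 (SE 0.07) was not called (adjusted p 0.158). The other 4 probes of the gene were all called, with changes of -0.28 to -0.26 and adjusted p from 0.0665 to 0.0860. On one of these, A_73_P266861, the CONT arrays lay at 9.55, 9.61 and 9.80 and the REST arrays at 9.12, 9.41 and 9.48. Every REST value was below every CONT value on this 1 of the 20 probes (5%), and on 292 of the 19403 tested probes (1.505%).

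CSN3 encodes kappa-casein, the micelle-stabilising casein that chymosin cleaves in cheese making. Its brightest probe lay at 9.74, 9.98 and 10.23 in CONT and at 9.40, 9.75 and 9.86 in REST. The groups overlapped through cow 5, whose CONT value was below the REST values of cows 1, 4 and 6, and the CONT values of the other 5 cows were above every REST value. The mean fell from 9.98 ± 0.18 to 9.70 ± 0.17, a change of -0.28 (SE 0.08) seen in 6 of 6 cows, with an adjusted p of 0.0776. The dimmer CSN3 probe, at -0.16 (SE 0.08), was not called (adjusted p 0.234).

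Among the whey proteins, LALBA encodes alpha-lactalbumin, the subunit that turns the galactosyltransferase B4GALT1 into lactose synthase. Its brightest probe lay at 9.69, 9.99 and 10.37 in CONT and at 9.53, 9.78 and 10.06 in REST. The SD between cows, 0.23 in CONT, exceeded the change on this probe, and the REST values of cows 5 and 6 were above the CONT values of cows 2, 3 and 4. The change was -0.20 (SE 0.08, lower in 6 of 6 cows, adjusted p 0.139). The second LALBA probe had a change of -0.23 (SE 0.08) and was called (adjusted p 0.0971).

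PAEP encodes beta-lactoglobulin, the main whey protein of cow milk and one that binds small hydrophobic molecules. Its brightest probe lay at 9.59, 9.72 and 9.91 in CONT and at 9.36, 9.58 and 9.70 in REST. The groups overlapped, with the REST values of cows 4, 5 and 6 inside the CONT range. The change was -0.17 (SE 0.07, lower in 6 of 6 cows, adjusted p 0.181), and the other 2 probes had changes of -0.21 and -0.22. In limma, 0 of the 3 PAEP probes were called, and 3 had an unadjusted p under 0.05.

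GLYCAM1 encodes a mucin-like glycoprotein secreted into milk, where it is known as a component of the proteose peptone fraction. Its brightest probe lay at 9.30, 9.36 and 9.52 in CONT and at 8.97, 9.22 and 9.37 in REST. The REST values of cows 1 and 6 lay inside the CONT range and the other 4 below it. The change was -0.19 (SE 0.08, lower in 6 of 6 cows, adjusted p 0.148). The dimmer probe, the dimmest of the 20, had a change of -0.25 (SE 0.08) and was called (adjusted p 0.0989).

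With the brightest probe alone, 2 of the 6 genes were called (CSN1S1 and CSN3), where 9.27% of all tested genes were called lower, 6.94% higher and 16.2% in either direction. Without the block 0 of the 6 were called in limma (adjusted p 0.185 to 0.484), where 2.81% of all tested genes were called lower, 1.59% higher and 4.4% in either direction. When the probes of a gene were averaged before the fit, 5 of the 6 were called lower, where 10.3% of all genes were called lower and 18.2% in either direction. The gene means changed by -0.25 for CSN1S2 (adjusted p 0.0594), -0.22 for GLYCAM1 (0.0809), -0.21 for LALBA (0.0865), -0.22 for CSN3 (0.0982) and -0.21 for CSN1S1 (0.0988). PAEP, at -0.20, had an adjusted p of 0.107. These values sit close together on either side of the threshold, and differences between genes were not tested.

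**Figure D2:**
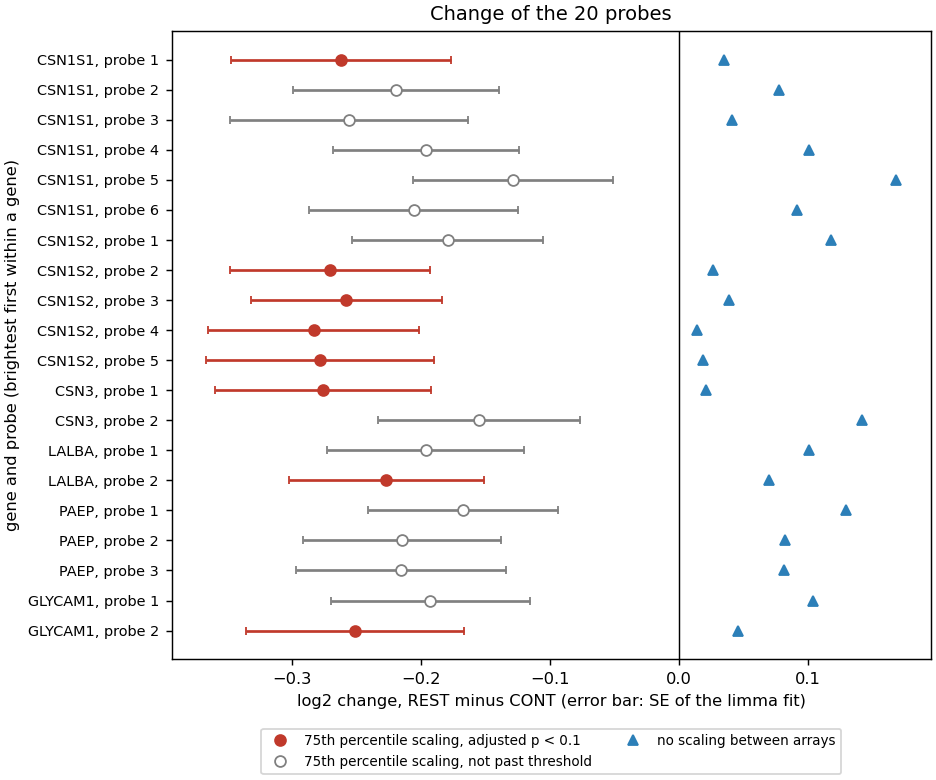
Change of each of the 20 probes, REST minus CONT on the log2 scale: circles with bars are the limma change ± SE after the 75th percentile shift (filled where the adjusted p was below 0.1), and triangles are the changes with no scaling between arrays. The scaled changes lie between -0.28 and -0.13 and the unscaled ones between 0.01 and 0.17.

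The change was uneven across cows. The median over the 6 genes was -0.29 in cow 1 and -0.32 in cow 2 (slide 1), -0.20 in cow 3 and -0.17 in cow 4 (slide 2), and -0.06 in cow 5 and -0.27 in cow 6 (slide 3). With the cows of a slide averaged first, the median change of the genes within slides 1, 2 and 3 was -0.27, -0.17 and -0.16. All 6 genes were lower in REST in every cow on this scaling, and the median over all genes in the same cows lay between -0.05 and 0.01. Averaged over its probes, every gene but LALBA and GLYCAM1 had its most negative change in cow 2 and its smallest in cow 5. For LALBA these were cows 1 and 5, and for GLYCAM1 cows 2 and 6. On the brightest probes, the 6 within-cow changes of GLYCAM1 had a correlation of -0.06 with the mean of the 3 caseins, against 0.84 for PAEP and 0.66 for LALBA (6 changes each, all scaled by the same percentile, a description only).

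Without cow 1, 2, 3, 4 or 6, 0 of the 20 probes were called in limma (9, 7, 12, 12 and 14 had an unadjusted p under 0.05), while 7.89%, 5.39%, 12%, 6.21% and 14.2% of all tested probes were called in either direction. Without cow 5, whose change was the smallest, 11 of the 20 were called, beside 17% of all tested probes. In each of these fits all 20 probes were lower in REST after the 75th percentile shift, and the median over the probes stayed between -0.26 and -0.19.

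As a share of the summed non-control signal of an array, the probes of the 6 genes together took 7.90% ± 0.42 in CONT (SD, n = 6) and 7.01% ± 0.71 in REST. The difference was -0.88 ± 0.58 percentage points, and the share was lower in 6 of 6 cows. In cow 2 it fell by 1.63 points, from 7.37% to 5.73%, the lowest share of any array, and in cow 5 it fell by 0.112 points, down to 7.29%. The casein probes went from 5.00% ± 0.27 to 4.41% ± 0.46 and the whey protein probes from 2.89% ± 0.15 to 2.60% ± 0.26, each sum lower in 6 of 6 cows. Gene by gene, the shares of CSN1S2, LALBA, PAEP and GLYCAM1 were lower in 6 of 6 cows and those of CSN1S1 and CSN3 in 5 of 6. In cow 5, the exception, CSN1S1 took 1.96% in CONT and 1.97% in REST, and CSN3 0.790% and 0.802%. The log2 ratio of whey to casein signal changed by 0.03 ± 0.03, which is within the spread between cows, and was higher in 5 of 6. These shares depend on how many probes a gene has and how bright they are, so they compare arrays and not genes. On this total-signal scaling, limma called 0 of the 20 probes, with 8 at an unadjusted p under 0.05, and 17.4% of all tested probes.

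**Figure D3:**
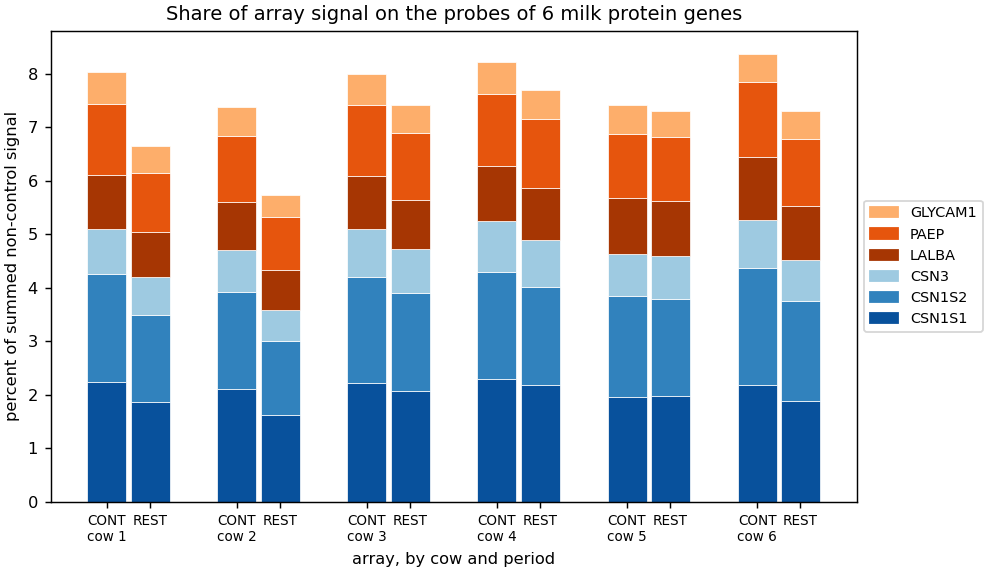
Percent of the summed non-control signal of each array that fell on the probes of the 6 genes, stacked by gene, for the CONT and REST array of each cow. The REST bar is the shorter one in all 6 cows, and the totals run from 5.73% to 8.37%.

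The direction depended on the reference. On the background-subtracted signals, with no scaling between arrays, the 20 probes were 0.01 to 0.17 higher in REST (median 0.08), while the median of all tested probes was 0.30 higher. The median of the family relative to all tested probes was thus -0.22, and the lower scaled values are lower relative to the bulk of the array. Scaled instead to RNA added in equal amounts to each labelling reaction (spike-ins), 4 of the 20 were lower and the median was 0.05, against 0.26 for all tested probes; this spike-in reference itself varied between the arrays of a cow by 0.03 ± 0.46 log2 units (SD, n = 6), a spread above the mean change of any of the 20 probes. Quantile normalization, which forces all arrays to the same distribution, left 14 of 20 probes lower with a median of -0.04 and 0 called in limma (1 at an unadjusted p under 0.05), beside 15.9% of all tested probes called, while the median over the brightest probes of the 6 genes was 0.016. With no scaling and with spike-in scaling, limma also called 0 of the 20, and 0 had an unadjusted p under 0.05, beside 60.4% and 12.1% of all tested probes called. Among all called probes, the share called lower was 54.9% after the 75th percentile shift, 36.1% with total-signal scaling, 7.08% with spike-in scaling and 3.41% with no scaling.

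**Figure D4:**
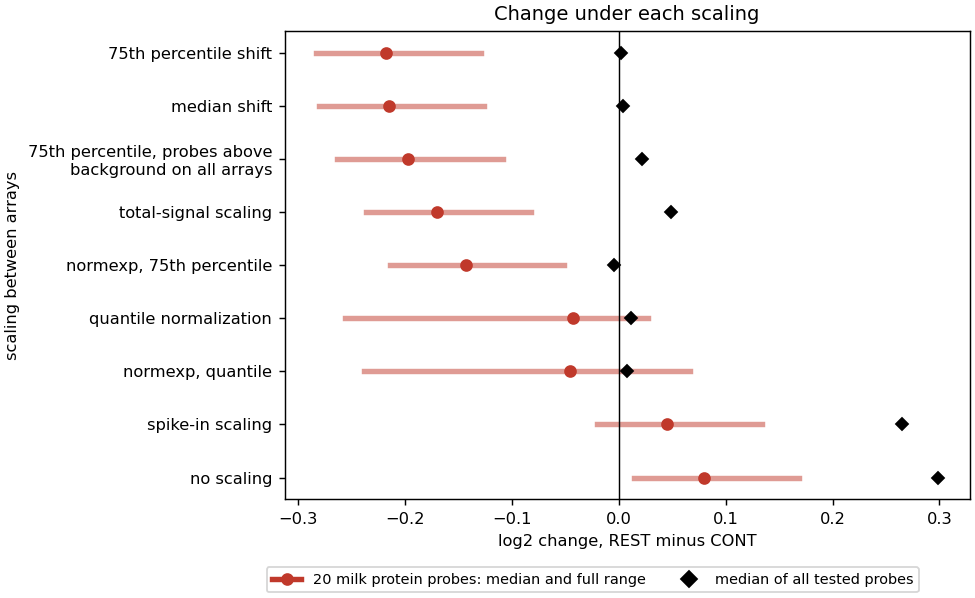
Median (circle) and full range (bar) of the log2 change, REST minus CONT, of the 20 milk protein probes under 9 scalings between arrays, with the median of all tested probes as a diamond. The milk protein median lies below the all-probe median under every scaling, and below 0 under all but spike-in scaling and no scaling.

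The other bright probes moved in part the same way. Of the 64 other tested probes at least as bright as the dimmest milk protein probe, 46 were lower in REST after the 75th percentile shift, with a median of -0.15 and a range of -0.73 to 0.45. A symbol was available for 35 of the 64, and 20 of these were probes of ribosomal protein genes. The other probes were not assigned to a gene, so milk protein probes among them would not be recognised. Of the 64, 14 were called lower and 1 higher, where 8.78% of all tested probes were called lower and 7.22% higher. The 1 called higher was LTF, which encodes lactoferrin, an iron-binding whey protein of the innate defence, and whose brightest probe was in the brightness range of the caseins. That probe went from 9.33 ± 0.30 to 9.78 ± 0.35, a change of 0.45 (SE 0.12, adjusted p 0.0507, higher in 6 of 6 cows), and it was not called without cow 1, 2 or 4. From its brightest to its dimmest probe, LTF rose by 0.45, 0.64, 0.80, 1.01 and 1.06, in step with falling probe signal, with all 5 probes called. The milk protein probes have no counterpart at low signal, since their dimmest probe averaged 8.49 in CONT. Of 11 genes with a probe in that brightness range and others at least 2 log2 units dimmer, the dimmer probes had a change of the same sign and further from 0 in 6. Whether probe brightness had a part in the size of the casein and whey protein changes was not tested.

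**Figure D5:**
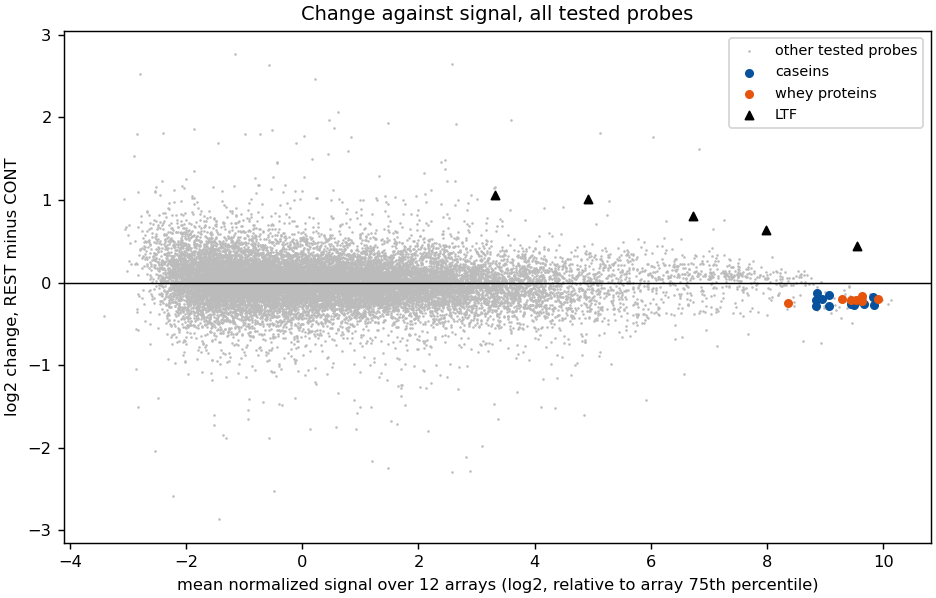
Change (log2, REST minus CONT) against mean normalized signal over the 12 arrays, for all tested probes (grey), the caseins, the whey proteins and LTF. The 20 milk protein probes form a narrow band between -0.28 and -0.13 at the bright end after the 75th percentile shift, and the 5 LTF probes run from 1.06 at low signal to 0.45 at high signal.

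In the genome the caseins lie side by side, in the order CSN1S1, CSN2, HSTN, STATH, CSN1S2, PRR27, ODAM and CSN3 in the reference table. Of the genes between them, STATH had a tested probe, with a change of 0.12 (SE 0.21, adjusted p 0.743). The ODAM probe was well above background on 0 arrays, and HSTN and PRR27 had no matched probe.

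The genes whose signal followed the mean of the 3 measured caseins most closely over the 12 arrays were FGR (r = 0.949), SCD (0.930), TRAFD1 (0.923), TMEM225B (0.911) and SC5D (0.906). These were higher than the values for PAEP (0.886), GLYCAM1 (0.821) and LALBA (0.782). Over the 6 within-cow changes the closest were DPT (0.991), RAB6A (0.987), SMAD5 (0.987), IGFBP6 (0.984) and OTX1 (0.981). These are the highest of 7930 correlations over few arrays that share slides and a scaling, and they describe these arrays only.

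Other genes of milk protein secretion were read from 4 lists of 85 genes, of which 66 were tested and 12 called (18.2%, beside 16.2% of all tested genes). Without the block CLU, SLC2A1 and SSR4 were called (3 genes, 4.55%, beside 4.4%). These shares are near those of all genes. Of 21 tested genes for other secreted and milk fat globule membrane proteins, 2 were called lower and 4 higher, with a median of -0.11. The largest changes were the rises of CHI3L1, a chitinase-like secreted glycoprotein (2.46, SE 0.40, adjusted p 0.0143), and of CLU, the secreted chaperone clusterin (0.99, SE 0.15, adjusted p 0.0103), both in 6 of 6 cows. MFGE8, a membrane protein of the milk fat globule, changed by -0.45 (SE 0.14, adjusted p 0.0789), and was not called without cow 1, 2, 4 or 6. The other calls, PIGR (0.44) and SPP1 (-0.36), fall outside the rule for naming genes, with PIGR not called without any cow but cow 3, and SPP1 not without any cow but cow 6.

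For lactose, whose synthesis needs LALBA, 8 genes were tested, with a median of -0.09. After the 75th percentile shift 7 were below 0, beside 51.6% of all tested genes. With no scaling, where the median change of all tested probes was itself 0.30, 2 were below 0. By the brightest probe the call was SLC2A1, the glucose transporter GLUT1, at -0.54 (SE 0.09, adjusted p 0.0153, lower in 6 of 6 cows). Of its 3 tested probes 2 were called. GALT and UGP2, named here for their dimmer probes, had 2 of 4 and 1 of 4 tested probes called, beside 16% of all tested probes. B4GALT1, the catalytic partner of LALBA and named here for that role, had a change of -0.15 that was not called (SE 0.10, adjusted p 0.356) and that was above 0 with no scaling and with spike-in scaling.

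Of 15 tested genes of prolactin signalling and milk gene regulation, 2 were called lower and 0 higher in limma (4 lower and 1 higher at an unadjusted p under 0.05), with a median of -0.07. SOCS2, a suppressor of cytokine signalling, changed by -0.59 (SE 0.13, adjusted p 0.0349, lower in 6 of 6 cows). CEBPB, a transcription factor of the mammary epithelium, changed by -0.32 (SE 0.09, adjusted p 0.0555), and was not called without cow 1, 2 or 3. STAT5A, at 0.05 (adjusted p 0.786), STAT5B, at -0.37 (0.109), and the prolactin receptor PRLR, at -0.22 (0.216), were not called and are named for their place upstream of the casein genes.

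Of 22 tested genes of casein modification and secretion, 2 were called lower and 1 higher, with a median of -0.01. SSR4, a subunit of the translocon-associated complex at the endoplasmic reticulum, changed by -0.57 (SE 0.10, adjusted p 0.0171, lower in 6 of 6 cows). C1GALT1, which builds the core O-glycan of the kind that kappa-casein carries, changed by -0.43 (SE 0.10, adjusted p 0.0354), and was not called without cow 4. GALNT2, which starts O-glycans, rose by 0.28 (SE 0.09, adjusted p 0.0975), and was not called without any one of the cows. The 12 called genes of these lists kept their direction under all 9 scalings. CHI3L1, CLU, LTF and PIGR were called under all 9, SLC2A1, SOCS2 and SSR4 under 8, C1GALT1, CEBPB and GALNT2 under 7, and MFGE8 and SPP1 under 4. With no scaling CEBPB was at -0.02, SPP1 at -0.06 and MFGE8 at -0.15.

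Markers of the cell types in the biopsies were read beside these genes from 7 lists. Of 50 tested markers 3 (6%) were called lower and 7 (14%) higher with the cow as a block, beside 9.27% and 6.94% of all tested genes. Without the block 2 of the 50 (4%), VWF and CLDN5, were called, beside 4.4% of all tested genes in either direction, and the other 8 were not (adjusted p 0.133 to 0.508). Of 12 luminal epithelial markers 11 were tested, and 3 were called higher (the keratins KRT7, KRT8 and KRT18, at 0.53, 0.72 and 0.52) and 0 lower in limma (4 higher and 0 lower at an unadjusted p under 0.05). Of the 11, 4 were below 0, and the changes ran from -0.22 to 0.72 with a median of 0.05. The mean level of this list was 2.70 to 3.08 in CONT and 2.71 to 3.26 in REST. Of 9 tested myoepithelial markers, 2 were called lower (CNN1 at -0.53 and ACTA2 at -0.38) and 1 higher (KRT17 at 0.44), with 4 of the 9 below 0, and the list averaged 2.71 to 3.48 in CONT and 2.65 to 3.45 in REST. Of 7 tested endothelial markers, 2 were called higher (CLDN5 at 0.74 and VWF at 0.54), with 1 of the 7 below 0 and list means of 0.64 to 1.19 in CONT and 0.96 to 1.15 in REST. Of 11 tested leukocyte markers, 1 was called higher (CD3E at 0.35) and 0 lower in limma (3 higher and 0 lower at an unadjusted p under 0.05), with 5 of the 11 below 0, a median of 0.17, and list means of 0.21 to 0.49 in CONT and 0.23 to 0.70 in REST. Of 8 adipocyte markers 2 were tested, with FABP4 called lower at -0.35 and PNPLA2 not called at 0.61 (adjusted p 0.136), while the probes of the defining adipocyte gene PLIN1 did not pass the filter on dim probes and ADIPOQ had no matched probe. In limma 0 of the 8 fibroblast markers were called (2 at an unadjusted p under 0.05), and 0 of the 2 tested erythrocyte markers (2 at an unadjusted p under 0.05, with changes of -0.42 and -0.33). Among the called markers, KRT8, CLDN5 and VWF were called with every cow left out in turn, and each of the others lost its call without at least 1 cow. The called markers kept their direction under all 9 scalings, and all markers named were chosen for naming after their values were seen. The part of cell composition in the casein and whey protein changes was not tested.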

How the data were processed

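The 12 samples, 6 CONT and 6 REST, were assigned by the labels. Per the file headers, the authors scanned each array with the extended dynamic range option and extracted it with Agilent Feature Extraction 11.0.1.1. The deposited intensity (processed signal) is background-subtracted and linear, with no scaling between arrays; a second deposited table repeated this intensity in all 43803 non-control rows, within a relative tolerance of 1e-05. The 75th percentile shift named in the methods was therefore computed here: the array's 75th percentile over non-control spots was subtracted from each log2 signal. A RefSeq gene table gave the probes their symbols by transcript identifier; its assembly is newer than that of the array, so positions and sequences are not given; 27131 of 43653 probes (62.2%) received a symbol. Repeat spots (50 probes) were averaged, and 1 to 13 spots per array marked by the scanner software were left out. A probe was tested when well above background on every array of at least 1 group (19403 probes).

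The 2 periods were compared in R 4.3.3 by limma 3.58.1 (lmFit, eBayes), two-sided, with Benjamini-Hochberg adjustment over all tested probes and a threshold of 0.1. The cow was a fixed block, since the labels name the animal; deviations from the group means correlated at 0.356 to 0.574 between samples of a cow and at -0.33 to 0.13 between cows. The methods name a moderated test without saying whether it was paired, so the fit without the block is given beside the milk protein results, and as counts for the gene lists. Where 1 probe stood for a gene it was the tested probe of highest mean signal. Alternatives covered scaling, background correction with normexp (on the median spot signal, offset 50), filters, blocks, moderation and each cow left out; spike-in scaling, over 6 of 10 spike-in probes, was added after the data were seen. The fit was tested on simulated data. Named genes were the milk protein genes, at most 4 called genes of each other list by absolute change, and the 5 genes most correlated with the mean of the caseins; exceptions are marked. The members and the gene lists were chosen with earlier results of these data known. Python 3.11.15, pandas 2.3.3 and matplotlib 3.10.9 were also used. The number of arrays limits the precision. With the cow as a block, p-values measure the spread of the changes within these cows. Without it they measure the spread between the samples of a period.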

Additional observations from a re-analysis of the deposited data

Results flagged for a closer look

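In 75 groups of 6 values (the 20 probes in CONT, in REST and as within-cow changes, and the shares of signal), 4 had 1 cow far from the rest, with the gap to its neighbour above the critical value of Dixon's test; about 1 group in 20 does so by chance, which here is 3.75. The CSN1S1 probe A_73_P393463 had a within-cow change of -0.65 in cow 2 and of -0.27 to -0.14 in the other cows (gap 0.740 of the range). The CSN1S2 probe A_73_104286 was highest in the CONT sample of cow 6, at 9.88 (gap 0.724). The CSN1S2 probe A_73_P438506 was lowest in the REST sample of cow 2, at 8.65 (gap 0.672). The GLYCAM1 probe A_73_P118441 was highest in the CONT sample of cow 1, at 8.72 (gap 0.732). Cow 2 also had the lowest share of signal on the 6 genes in REST, at 5.73%.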

How the results depend on the processing

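The calls changed with the replicate block, the scaling, the filter and the cows included. Without the block, 0 milk protein probes (main value 8) and 0 genes by the brightest probe (main value 2) were called, with 836 of all tested probes (main value 3104) and 3 genes of the pathway lists (main value 12). With the cow as a random replicate block, 14 milk protein probes were called, beside 18.3% of all tested probes. With the slide as a block the counts were 2 probes, 0 genes, 1898 of all probes and 7 genes of the lists.

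The direction changed with the scaling. With quantile normalization, 0 probes and 0 genes were called and the median change of the 6 genes, -0.19 after the 75th percentile shift, was 0.016, with CSN1S2 at 0.012, LALBA at 0.019, PAEP at 0.028 and GLYCAM1 at 0.023. With no scaling, 0 probes and 0 genes were called and the median was 0.10, with CSN1S1 at 0.035, CSN1S2 at 0.12, CSN3 at 0.021, LALBA at 0.10, PAEP at 0.13 and GLYCAM1 at 0.10; 11727 of all probes and 32 genes of the lists were called. With spike-in scaling, 0 probes and 0 genes were called and the median was 0.068, with CSN1S1 at 0.00083, CSN1S2 at 0.084, LALBA at 0.066, PAEP at 0.10 and GLYCAM1 at 0.070, and 4 genes of the lists were called. Total-signal scaling and normexp with the 75th percentile shift kept all 20 probes lower and called 0 probes and 0 genes, beside 17.4% and 17.7% of all tested probes. Normexp with quantile normalization called 0 probes and 0 genes, beside 15.4% of all tested probes, with a median of -0.024, CSN1S2 at 0.0039 and PAEP at 0.026. The 75th percentile over probes well above background called 3 of the 20 probes and 0 genes, beside 15.5% of all tested probes.

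Without the filter on dim probes, 0 milk protein probes and 0 genes, 388 of all probes and 3 genes of the lists were called. Trend and robust moderation called 18 probes and 6 genes, beside 18.1% of all tested probes. Without moderation, 4 genes, 1852 of all probes and 6 genes of the lists were called. Averaging the probes of a gene called 5 genes, beside 18.2% of all tested genes. With 1 cow left out, the values ranged over 0 to 2 genes called, 0 to 11 probes, a median of -0.21 to -0.18, 1045 to 3291 of all probes, 6 to 11 genes of the lists, and a difference in the share of signal of -1.04 to -0.73 percentage points. The median shift, the deposited table, the stricter background filter and marked spots kept left the direction of all 20 probes and called 7 or 8 of them. In the same order, 15%, 16%, 17.9% and 16% of all tested probes were called. The cause of these differences was not tested.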
